A study of Mus musculus with 17 samples.

Results

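The genes described here are 41 genes that dividing cells use to copy and separate their chromosomes, from the Mcm helicase subunits to the kinesins of the spindle. They were taken as a list of names and measured through the array probes whose RefSeq transcript belongs to one of them. All 41 had a probe (53 probes in all), and 37 of them were among the 21405 genes bright enough to be tested. The data came from 17 Agilent arrays of the forestomach, the squamous part of the rodent stomach, of male MutaTMMouse animals, a transgenic strain made for mutation assays, aged 24 to 26 weeks and housed singly. The animals received benzo(a)pyrene (BaP), a polycyclic aromatic hydrocarbon, in olive oil by gavage on 28 days in a row, and the tissue was frozen 72 hours after the last dose. The groups were olive oil alone (5 arrays, replicates 1 to 5) and BaP at 25 mg/kg per day (4 arrays, replicates 6 to 9), 50 mg/kg per day (4 arrays, replicates 12 to 15) and 75 mg/kg per day (4 arrays, replicates 17 to 20). On every array Cy5 carried forestomach RNA from random sections of the tissue and Cy3 a reference RNA mixed from 11 mouse cell lines, so each value is a log2 ratio of Cy5 over Cy3 and a difference between groups is a difference of such ratios.

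In a dividing cell these genes are switched on in waves. Genes for DNA replication and nucleotide supply peak around the entry into S phase, when E2F factors replace repressive complexes at their promoters, and genes for the spindle, the kinetochore and chromosome separation peak in G2 and mitosis, when the MuvB complex with B-Myb and FoxM1 acts at CHR elements. In squamous epithelium such as that of the forestomach, most division takes place in the basal layer, and cells leave the cycle as they move up and cornify. The mRNA level of these genes in a piece of tissue is widely read as a measure of how many cells are cycling.

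A few promoters of the members are printed here because the letters that E2F and MuvB complexes are known to read can be looked for in them. RefSeq's promoter table (GRCm38.p6) held an entry for 34 of the 41 members, a window of 250 bases before to 50 bases after the start. The windows were searched on both strands for the CHR core TTTGAA, for E2F letters in the form GCGGGAA, in the form GCGCGAA and in the form GCGCCAA (whose end can overlap a CCAAT box), and for the box CCAAT. Of the 21 mitosis members with an entry, 14 (66.7%) held TTTGAA and 3 (14.3%) an E2F match, and of the 11 replication and nucleotide members 2 (18.2%) held TTTGAA and 6 (54.5%) an E2F match. Over all 32851 windows of the same length, 17.9% held TTTGAA, 8.07% an E2F match and 37.4% CCAAT, which 27 of the 34 members (79.4%) held. These matches are a description of the letters. The 120 bases just before the start are shown for 7 members, 5′ to 3′ on the gene's own strand, with the CHR core and the E2F letters of either strand in capitals.
Rrm1, chr7:102441575-102441694, plus strand: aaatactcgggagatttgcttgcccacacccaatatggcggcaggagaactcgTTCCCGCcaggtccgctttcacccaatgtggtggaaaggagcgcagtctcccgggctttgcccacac
Mcm6, chr1:128359706-128359825, minus strand: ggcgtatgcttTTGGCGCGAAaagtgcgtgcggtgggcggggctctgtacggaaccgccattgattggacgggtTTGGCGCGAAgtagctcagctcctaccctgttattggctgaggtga
Mki67, chr7:135716380-135716499, minus strand: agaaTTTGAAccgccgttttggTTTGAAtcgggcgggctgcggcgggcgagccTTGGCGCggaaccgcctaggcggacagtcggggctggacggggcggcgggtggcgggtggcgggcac
Top2a, chr11:99024190-99024309, minus strand: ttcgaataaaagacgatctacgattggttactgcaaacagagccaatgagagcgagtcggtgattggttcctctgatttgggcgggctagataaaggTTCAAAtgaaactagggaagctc
Cdk1, chr10:69352913-69353032, minus strand: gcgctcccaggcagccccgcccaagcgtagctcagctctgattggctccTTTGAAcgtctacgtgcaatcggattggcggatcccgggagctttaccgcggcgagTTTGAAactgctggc
Cdc20, chr4:118437344-118437463, minus strand: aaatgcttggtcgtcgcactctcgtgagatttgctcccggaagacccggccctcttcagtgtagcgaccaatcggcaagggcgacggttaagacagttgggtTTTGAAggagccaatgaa
Ube2c, chr2:164769809-164769928, plus strand: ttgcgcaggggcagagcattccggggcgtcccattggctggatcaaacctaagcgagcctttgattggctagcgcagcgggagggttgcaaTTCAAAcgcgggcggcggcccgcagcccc
Rrm1 and Mcm6 carried E2F letters in this stretch and Top2a, Cdk1, Cdc20 and Ube2c the CHR core, while Mki67 carried both. In Mcm6 the capitals at each of 2 places cover a pair of E2F matches that overlap on opposite strands. Counted from the start, with -1 the last base before it, the CHR match began at -71 and -15 in Cdk1, at -18 in Cdc20, at -23 in Top2a, at -29 in Ube2c, and at -116 and -98 in Mki67.

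The members were low in this tissue relative to the reference. All 37 had a mean log2 ratio below 0, and 34 were below -1, against 8.87% of all genes tested, so the forestomach gave less signal for these mRNAs than the cultured lines of the reference, with the dyes fixed. The median over members was -2.16, against 0.07 over all genes, and 36 of the 37 were below 0 on every array. The exception was Ccne1, at 0.45 on control 2. Aurkb (the kinase of the chromosomal passenger complex), Ttk (the spindle checkpoint kinase), Ccne2 (a cyclin of the entry into S phase) and Cdc6 (which loads the Mcm helicase) were not well above background on 4 arrays or more and gave no test. Probes of 32 members were well above background on all 17 arrays. Those of Cdc45, Bub1, Cdk1, Kif11 and Nek2 were so on 7, 11, 12, 15 and 15 arrays, and at 50 mg/kg no array had Cdc45 well above background.

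One library stood apart in these genes. Control 2 was the highest of the 5 controls for 32 of the 37 members and the highest of all 17 arrays for 26, whereas it was the highest of the 17 for 12% of all genes. It lay above the mean of the other 4 controls by a median of 0.90 and by up to 2.23 (Mki67), while the median over all genes was -0.02. The mean over the 37 members was -1.32 on control 2 and lay between -2.49 and -2.01 on the other controls, between -2.34 and -2.00 at 25 mg/kg, between -2.13 and -1.94 at 50 mg/kg and between -2.11 and -1.87 at 75 mg/kg. The same array was also high in genes of blood and lymphoid cells. The mean of the B cell and plasma cell list (5 of 9 genes measured) was 0.28 on control 2, -3.17 to -2.24 on the other controls, -3.09 to -2.64 at 25 mg/kg, -3.14 to -1.46 at 50 mg/kg and -3.22 to -2.69 at 75 mg/kg. The mean of a list of red cell precursor genes (6 of 12 measured), chosen after the values of control 2 had been seen, was 3.49 there and between 0.03 and 1.01 on the other 16 arrays. The T cell and macrophage lists (6 and 5 genes measured) were highest on control 2 as well, at 0.58 and 1.52, with the other 16 arrays at -0.94 to -0.01 and 0.38 to 1.23. The part of those cells in the high level of the cell cycle genes was not tested. Differences of the members at 75 mg/kg are therefore given with and without control 2. Leaving it out lifts every difference from control of the members in which it was above the other controls, so the values without it are no independent check.

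**Figure D1:**
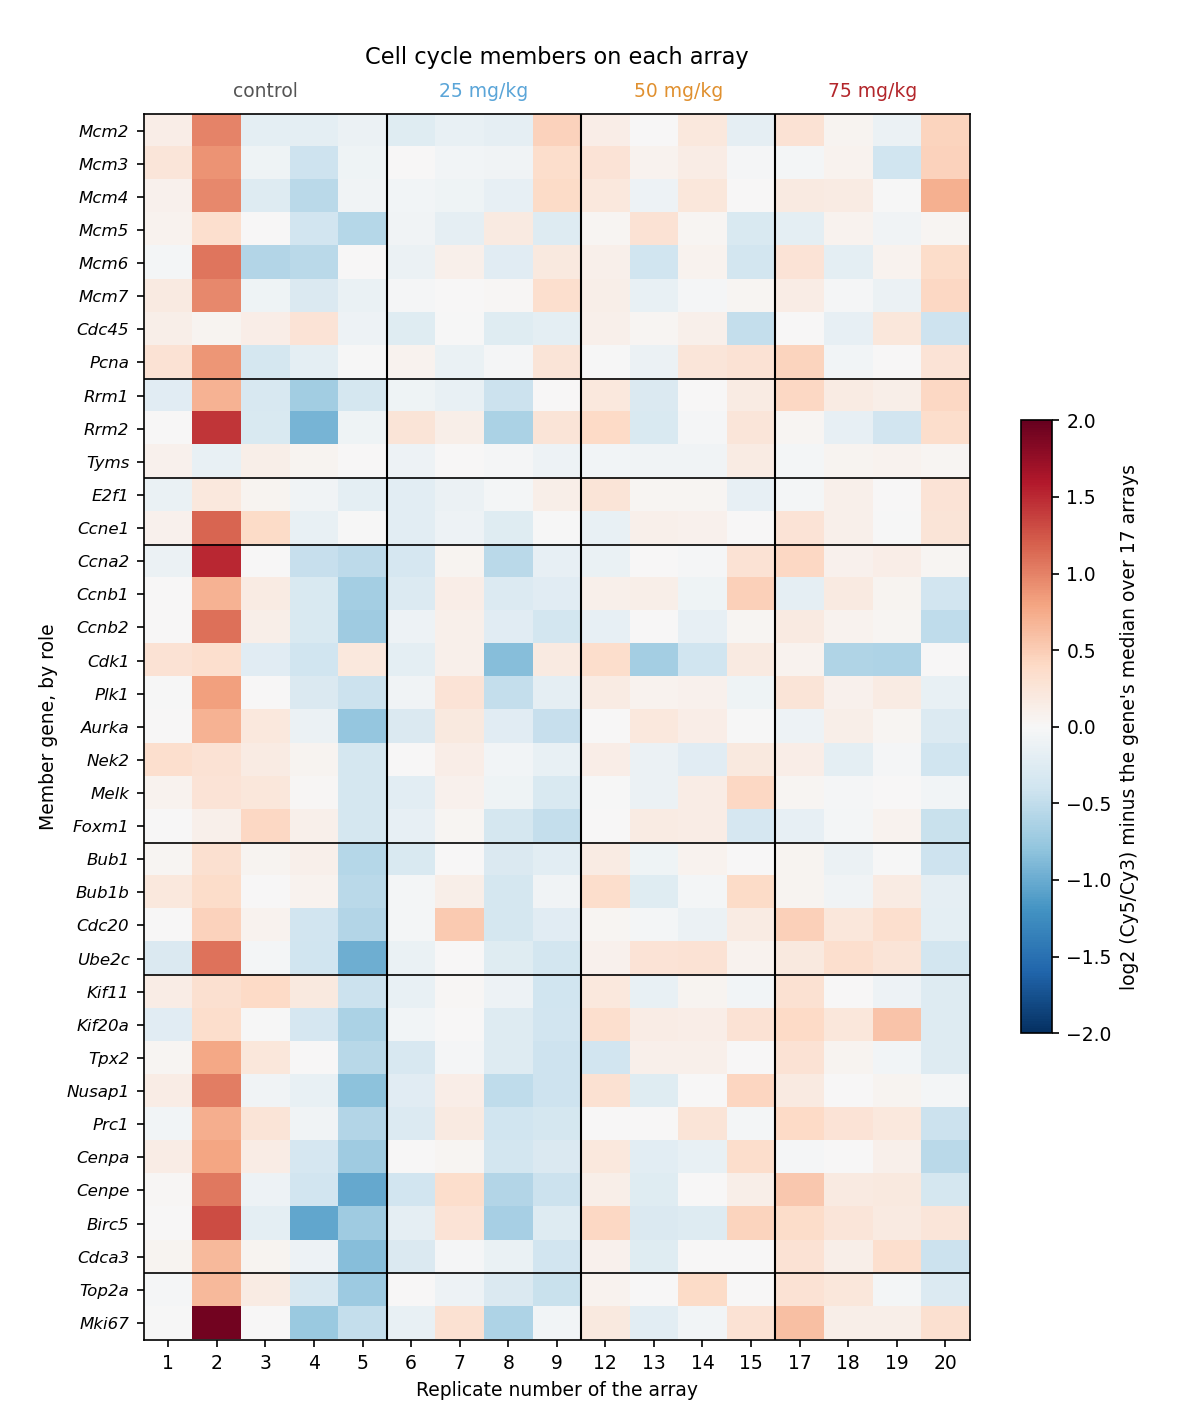
Log2 ratio (Cy5 over Cy3) of each of the 37 measured members (rows, grouped by role) on each of the 17 arrays (columns, by dose and replicate number), minus that gene's median over the arrays. Control 2 is the darkest column, with Mki67 at -0.82 against -3.49 to -2.74 on the other controls, and control 5 is low in most mitosis members.

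With all 17 arrays, no member passed the test at any dose. The test was limma's moderated statistic with a Benjamini-Hochberg adjustment over all 21405 genes at 0.05. Against this, 0.014% of all genes passed at 25 mg/kg, 0.0467% at 50 mg/kg and 1.1% at 75 mg/kg, so a count of 0 of 37 is near the background share at each dose. The smallest adjusted p among the members was 0.999 at 25 mg/kg, 0.725 at 50 mg/kg (Kif20a) and 0.453 at 75 mg/kg (Kif20a). At an unadjusted p under 0.05, 1 member was lower at 25 mg/kg (Ccne1, where 1.16% of all genes were), 1 was higher at 50 mg/kg (Kif20a, 3.86%) and 2 were higher at 75 mg/kg (Kif20a and Rrm1, 5.69%). No member had its dosed arrays all above or all below the 5 controls at any dose, whereas 0.556%, 1.22% and 1.99% of all genes were all above at 25, 50 and 75 mg/kg and 0.43%, 0.986% and 1.31% all below.

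The median difference of the 37 members from control was -0.15 at 25 mg/kg, 0.04 at 50 mg/kg and 0.03 at 75 mg/kg, against 0.01, -0.01 and -0.01 over all genes. At 25 mg/kg 33 members were lower and 4 higher than control, at 50 mg/kg 16 lower and 21 higher, and at 75 mg/kg 17 lower and 20 higher. The members at 75 mg/kg ran from -0.32 (Cdk1) to 0.45 (Rrm1). These small differences had wide errors. The 95% interval reached 0.44 to either side of the difference in the median member, and at 75 mg/kg the upper bound lay below a 2-fold rise for 36 of 37 members and the lower bound above a 2-fold fall for all 37. Birc5 was the exception, with an upper bound of 1.11. In bulk tissue, fewer cycling cells and less of these mRNAs per cell cannot be told apart.

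Without control 2, 1 member passed at 75 mg/kg. This was Rrm1, the large subunit of ribonucleotide reductase, at 0.67 ± 0.14 (adjusted p = 0.0197), where 1.35% of all genes passed. At 25 and 50 mg/kg 0 members passed, where 0.00467% and 0.135% of all genes did. The median difference of the members became 0.03, 0.18 and 0.19 at the 3 doses, with 23, 30 and 29 of 37 above 0, and over all genes it stayed at 0.01, 0.00 and 0.00. At an unadjusted p under 0.05, 10 members were higher at 75 mg/kg and 0 lower, where 5.94% and 4.22% of all genes were. The 4 arrays at 75 mg/kg all lay above the other 4 controls for 4 members, Rrm1, Ccna2, Birc5 and Mki67, where 3.37% of all genes did. At 50 mg/kg 2 members, Ube2c and Kif20a, did so (2.39%), and at 25 mg/kg 1 member, Tyms, had all 4 dosed arrays below those controls (0.827%). Control 5 pulled the other way. It was the lowest control for 24 members, and without it the medians were -0.27, -0.11 and -0.09, with 0 members passing at any dose, where 0.00467%, 0.014% and 1.29% of all genes did. At an unadjusted p under 0.05 without control 5, 10 members were lower and 0 higher at 25 mg/kg, where 2.77% of all genes were lower, and 3 were lower and 0 higher at 75 mg/kg, where 5.76% were lower.

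**Figure D2:**
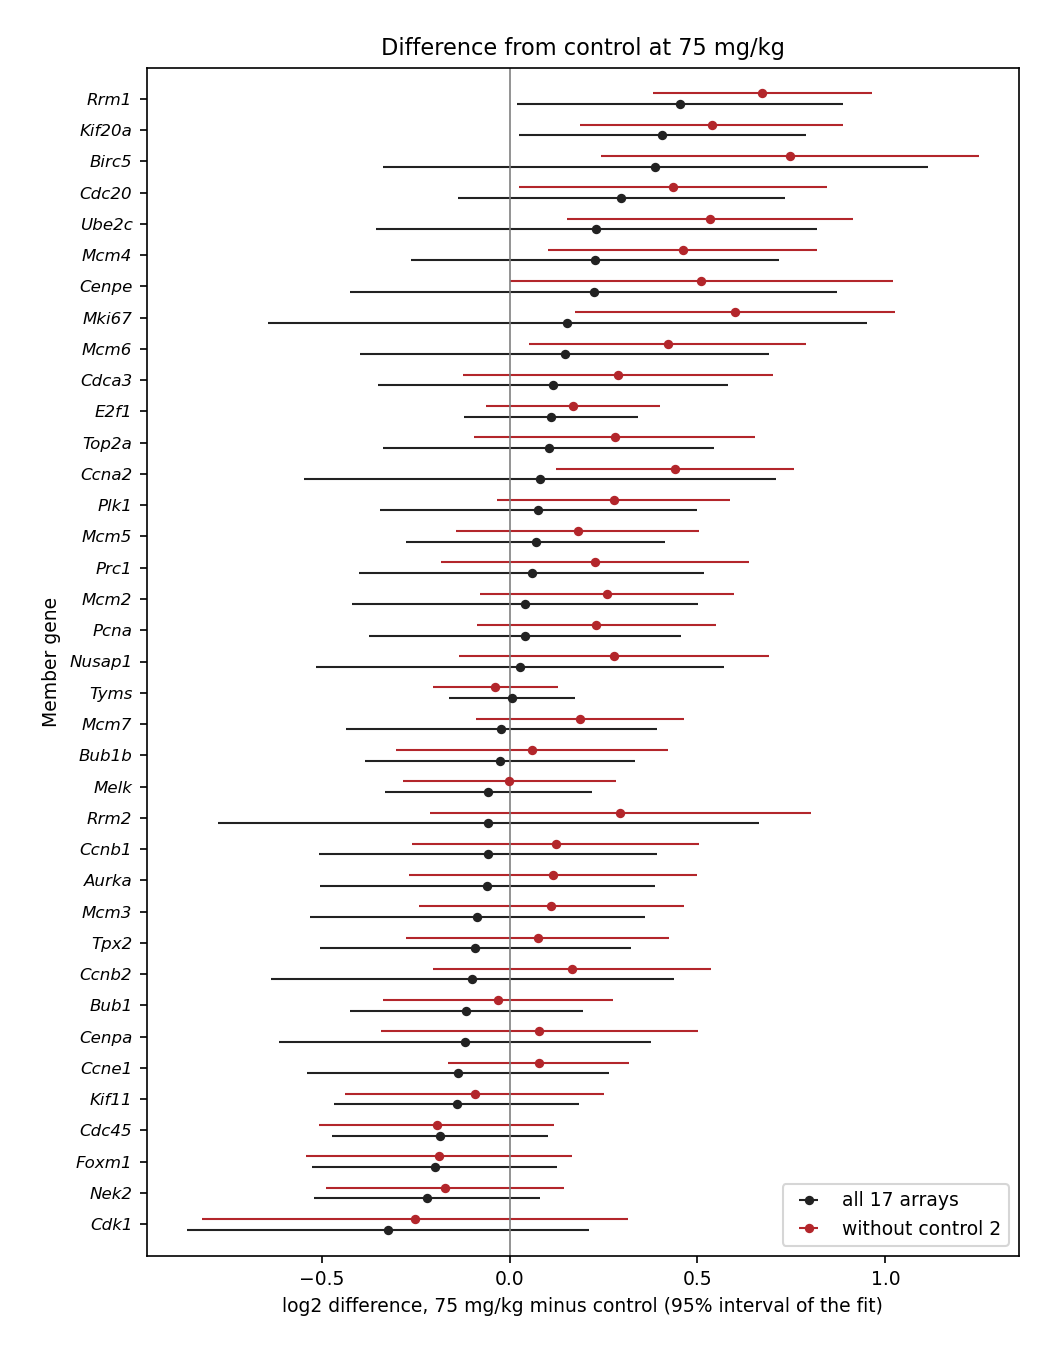
Difference in log2 ratio between 75 mg/kg and control for the 37 measured members, in order of size. Points are the fitted differences and bars their 95% intervals, black with all 17 arrays and red without control 2. Red points lie to the right for most members, and Rrm1 moves from 0.45 to 0.67.

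The arrays came from 3 slides, and each slide held arrays of every group, so slide could be fitted as a block. With all arrays and the block, 0 members passed at 25, 50 or 75 mg/kg, where 0.00467%, 0.131% and 1.98% of all genes did. The smallest adjusted p at 75 mg/kg was 0.149 (Kif20a). At 25 mg/kg 35 members were lower than control and 2 higher, with 5 lower and 0 higher at an unadjusted p under 0.05. By that rule 2.03% of all genes were lower. At 75 mg/kg 3 members were higher and 1 lower by the same rule, where 8.08% and 6.35% of all genes were. With control 2 left out and the block together, a setting added after the data were seen, 4 members rose at 75 mg/kg, where 2.57% of all genes passed in either direction. They were Rrm1 (0.67 ± 0.10, adjusted p = 0.0018), Ube2c (0.53 ± 0.12, adjusted p = 0.0287), Birc5 (0.75 ± 0.18, adjusted p = 0.0427) and Kif20a (0.54 ± 0.13, adjusted p = 0.0429). In the same setting Ube2c was the only member to pass at 50 mg/kg (0.61 ± 0.12, adjusted p = 0.0453), where 0.355% of all genes passed, and 0 passed at 25 mg/kg (0.00467%). Within single slides, without control 2, the difference of Rrm1 at 75 mg/kg was 0.63, 0.64 and 0.77 on slides 1, 2 and 3, and that of Kif20a was 0.64, 0.57 and 0.38. Those on slides 1 and 3 set 1 array against 1, and slide 2 set 2 against 2. They come from the same arrays as the fits above, for members that passed there, and are no independent check. With control 2 included, slide 1 gave 0.17 for Rrm1 and 0.34 for Kif20a. The member median within the slides was 0.15, 0.15 and 0.38, and -0.22 on slide 1 with control 2 included.

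A linear trend over dose was fitted to the same ratios. No member passed with all arrays, where 1.35% of all genes did. When the arrays were scaled by their medians in place of loess, Kif20a passed (adjusted p = 0.0385), where 0.804% of all genes did, 166 of them upward and 6 downward. After loess, the slope of Kif20a was 0.16 ± 0.06 per 25 mg/kg (adjusted p = 0.236) and that of Rrm1 0.15 ± 0.06 (adjusted p = 0.354). Without control 2, Rrm1 rose with dose by 0.22 ± 0.04 per 25 mg/kg (adjusted p = 0.00575), where 1.88% of all genes passed. With control 2 left out and slide as a block, 5 members passed, all upward, where 3.54% of all genes did. They were Rrm1, Birc5, Kif20a, Ube2c and Mki67, with slopes of 0.23, 0.27, 0.20, 0.20 and 0.21. A comparison of 75 with 25 mg/kg, which uses no control level and was added after the data were seen, had 33 of 37 members higher at 75 mg/kg, with a median of 0.14 against -0.01 over all genes. No member passed it, where 0.0607% of all genes did. Kif20a alone had an unadjusted p under 0.05 (2.28% of all genes were higher by that rule), with a difference of 0.41 ± 0.19.

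Among the genes of the replication origin and fork, 8 of 9 were measured, and their differences at 75 mg/kg ran from -0.19 to 0.23 with all arrays. Mcm2 to Mcm7 encode the subunits of the helicase that unwinds DNA. Mcm4 differed by 0.23 ± 0.23, Mcm6 by 0.15 ± 0.26, Mcm5 by 0.07 ± 0.16, Mcm2 by 0.04 ± 0.22, Mcm7 by -0.02 ± 0.20 and Mcm3 by -0.09 ± 0.21. The controls set much of that error, with Mcm4 at -1.36 on control 2 and between -2.86 and -2.24 on the others. Without control 2 the difference of Mcm4 was 0.46 ± 0.17 (adjusted p = 0.302) and that of Mcm6 0.42 ± 0.17 (adjusted p = 0.396). Mcm2 then stood at 0.26 ± 0.16, Mcm7 at 0.19 ± 0.13, Mcm5 at 0.18 ± 0.15 and Mcm3 at 0.11 ± 0.17, so the differences of Mcm7 and Mcm3 took the other sign.

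Pcna, the sliding clamp of the DNA polymerases, had log2 ratios of -2.13, -1.54, -2.77, -2.61 and -2.43 in controls 1 to 5. It stood at -2.34, -2.55, -2.44 and -2.17 at 25 mg/kg and at -2.42, -2.53, -2.18 and -2.13 at 50 mg/kg. At 75 mg/kg the values of Pcna were -1.98, -2.48, -2.42 and -2.14. Control 2 was the highest array of all, and every dose group overlapped the controls. The difference at 75 mg/kg was 0.04 ± 0.20 (adjusted p = 0.968), and 0.23 ± 0.15 without control 2 (adjusted p = 0.678).

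Cdc45, which joins the Mcm ring to form the active helicase, was near background. Its log2 ratio was -0.78, -0.84, -0.77, -0.64 and -1.01 in the controls and -1.14, -0.91, -1.14 and -1.09 at 25 mg/kg. It was -0.90, -1.07, -0.68 and -1.31 at 75 mg/kg, and -0.80, -0.87, -0.80 and -1.38 at 50 mg/kg, where no array was well above background and no fold is given. Control 2 did not stand out in this gene. The difference at 75 mg/kg was -0.19 ± 0.14 (adjusted p = 0.714), and -0.19 ± 0.15 without control 2.

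Of the genes of nucleotide supply, Rrm1 had the largest difference at 75 mg/kg. Its log2 ratios were -2.22, -1.29, -2.31, -2.69 and -2.35 in controls 1 to 5 and -2.08, -2.14, -2.42 and -1.98 at 25 mg/kg. They were -1.79, -2.28, -2.00 and -1.83 at 50 mg/kg and -1.58, -1.83, -1.88 and -1.58 at 75 mg/kg. The 75 mg/kg arrays all lay above controls 1, 3, 4 and 5 and below control 2. The group means were -2.17 ± 0.52 (SD, n = 5) in controls and -1.72 ± 0.16 (SD, n = 4) at 75 mg/kg. The difference was 0.45 ± 0.21 with all arrays (adjusted p = 0.464), with a 95% interval of 0.02 to 0.89. When each array was left out in turn it ran from 0.32 to 0.67, and its adjusted p from 0.0197 (without control 2) to 0.739.

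Rrm2, the partner subunit whose level limits the enzyme through the cycle, differed by -0.06 ± 0.34 at 75 mg/kg, and by 0.29 ± 0.24 without control 2 (adjusted p = 0.772). Rrm2 was at -1.06 on control 2 and between -3.42 and -2.49 on the other controls. Tyms, thymidylate synthase, was the steadiest member, with a pooled SD within groups of 0.09, and differed by 0.01 ± 0.08, or by -0.04 ± 0.08 without control 2. It was also the member in which control 2 was the lowest of the 17 arrays. The difference between the response of Rrm1 and those of Rrm2 or Tyms was not tested.

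The genes of the entry into S phase were E2f1, a transcription factor that switches on replication genes, and Ccne1, the cyclin partner of Cdk2. E2f1 differed by 0.11 ± 0.11 at 75 mg/kg, and by 0.17 ± 0.11 without control 2. Ccne1 differed by -0.43 ± 0.19 at 25 mg/kg (unadjusted p = 0.0357, adjusted p = 0.999) and by -0.14 ± 0.19 at 75 mg/kg. Its control level rested on control 2, at 0.45, with the other controls at -0.62, -0.33, -0.85 and -0.71. Without control 2 Ccne1 differed by -0.22 ± 0.11 at 25 mg/kg (unadjusted p = 0.072) and by 0.08 ± 0.11 at 75 mg/kg.

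The cyclins and kinases of G2 and mitosis were the group in which differences below 0 were most frequent, 7 of the 9 measured at 75 mg/kg with all arrays. Without control 2 the count was 4 of 9, with a median of 0.12. Cdk1, the kinase that drives mitosis, had log2 ratios of -1.62, -1.58, -2.14, -2.31 and -1.69 in the controls. It was at -2.11, -1.81, -2.77 and -1.73 at 25 mg/kg and at -1.55, -2.59, -2.31 and -1.72 at 50 mg/kg. The 75 mg/kg arrays gave -1.83, -2.51, -2.52 and -1.91. In every group the lowest Cdk1 values were those of slide 2 (controls 3 and 4 and replicates 8, 13, 14, 18 and 19). The difference at 75 mg/kg was -0.32 ± 0.25 (adjusted p = 0.738), and -0.25 ± 0.27 without control 2. With all arrays a dimmer probe of the gene gave 0.04 ± 0.12. That probe was well above background on only 6 arrays, 2 of them at 75 mg/kg. With all arrays and slide as a block, Cdk1 differed by -0.34 ± 0.10 at 25 mg/kg (adjusted p = 0.738). Its probe was well above background on only 1 array at 25 mg/kg and on 3 controls, so that value is near the floor. In that fit Cdk1 differed by -0.10 ± 0.10 at 50 mg/kg and by -0.25 ± 0.10 at 75 mg/kg (adjusted p = 0.246).

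Ccnb1, the mitotic cyclin bound by Cdk1, was at -2.01, -1.32, -1.84, -2.32 and -2.70 in the controls. It was at -2.29, -1.87, -2.29 and -2.23 at 25 mg/kg and at -1.91, -1.89, -2.10 and -1.54 at 50 mg/kg. At 75 mg/kg the values were -2.19, -1.84, -1.96 and -2.40, inside the range of the controls. The difference was -0.06 ± 0.21 (adjusted p = 0.956), and -0.17 ± 0.20 and -0.36 ± 0.17 by its other probes. Those other probes were well above background on 12 and 15 arrays, in that order. Without control 2 the 3 probes gave 0.12 ± 0.18, -0.06 ± 0.20 and -0.34 ± 0.19. The sign of the first was also above 0 with Agilent's processed signals (0.25), with median centring (0.28) and without replicate 20 (0.04). Whether a processed copy of Ccnb1 in the mouse genome shared the signal of these probes was not tested.

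Foxm1, the transcription factor of the G2 and mitosis genes, was at -1.59, -1.48, -1.18, -1.48 and -1.93 in the controls. It was at -1.74, -1.55, -1.94 and -2.05 at 25 mg/kg and at -1.57, -1.43, -1.44 and -1.92 at 50 mg/kg. Its values at 75 mg/kg were -1.75, -1.63, -1.51 and -2.03. The highest array was control 3, not control 2. Foxm1 differed at 75 mg/kg by -0.20 ± 0.15 (adjusted p = 0.737), and -0.19 ± 0.17 without control 2.

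Nek2, a kinase that separates the centrosomes, gave log2 ratios of -1.63, -1.68, -1.80, -1.91 and -2.32 in the controls. They were -1.97, -1.83, -2.02 and -2.11 at 25 mg/kg and -1.83, -2.07, -2.20 and -1.77 at 50 mg/kg. The values were -1.84, -2.16, -1.99 and -2.36 at 75 mg/kg. The groups overlapped throughout, with control 1 the highest array. At the top dose Nek2 differed by -0.22 ± 0.14 (adjusted p = 0.66), and by -0.17 ± 0.15 without control 2. The lowest adjusted p when 1 array was left out was 0.238.

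The other measured members of this group lay between. Ccna2, the cyclin of S phase and G2, differed by 0.08 ± 0.30 at 75 mg/kg and by 0.44 ± 0.15 without control 2 (adjusted p = 0.244). It was at -0.93 on control 2 and between -2.97 and -2.44 on the other controls. Plk1, a kinase of mitotic entry and exit, differed by 0.08 ± 0.20, and Aurka, a kinase of the spindle poles, by -0.06 ± 0.21. Melk, a kinase that rises in mitosis, differed by -0.06 ± 0.13 and Ccnb2, the second mitotic B cyclin, by -0.10 ± 0.25. Without control 2 Plk1 differed by 0.28 ± 0.15, Aurka by 0.12 ± 0.18, Melk by 0.00 ± 0.13 and Ccnb2 by 0.17 ± 0.17.

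The spindle checkpoint and the anaphase promoting complex were represented by 4 of 5 members. Cdc20, the activator of that complex, had log2 ratios of -1.52, -1.05, -1.44, -1.90 and -2.11 in the controls. It was at -1.56, -0.99, -1.87 and -1.74 at 25 mg/kg and at -1.48, -1.56, -1.63 and -1.35 at 50 mg/kg. At 75 mg/kg it was at -1.04, -1.29, -1.18 and -1.72. Replicate 7 at 25 mg/kg was the highest array. Every dose group overlapped the controls with all arrays. Without control 2 the arrays at 75 mg/kg were above the controls except replicate 20, which lay below controls 1 and 3. Cdc20 differed at 75 mg/kg by 0.30 ± 0.21 (adjusted p = 0.69), and 0.44 ± 0.19 without control 2 (adjusted p = 0.448).

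Ube2c, the ubiquitin-conjugating enzyme of the same complex, is given with its values because it passed in an added setting, so it was chosen after its values were seen. In the controls its log2 ratios were -2.53, -1.15, -2.28, -2.63 and -3.21. At 25 mg/kg they were -2.36, -2.23, -2.47 and -2.60. They were -2.14, -1.95, -1.94 and -2.16 at 50 mg/kg and -2.04, -1.90, -1.97 and -2.60 at 75 mg/kg. The 50 mg/kg arrays all lay above the controls other than control 2. Its differences were 0.31 ± 0.28 at 50 mg/kg and 0.23 ± 0.28 at 75 mg/kg with all arrays. Without control 2 they were 0.61 ± 0.18 and 0.53 ± 0.18 (adjusted p = 0.31 and 0.237). With all arrays a dimmer probe gave -0.02 ± 0.28 at 75 mg/kg. With control 2 left out and slide as a block, that probe gave 0.27 ± 0.16 (adjusted p = 0.479) and did not pass. The checkpoint kinase Bub1 differed by -0.11 ± 0.15 and its relative Bub1b by -0.03 ± 0.17, and by -0.03 ± 0.14 and 0.06 ± 0.17 without control 2.

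Among the genes of the spindle, kinetochore and cytokinesis, all 9 were measured, with differences from -0.14 (Kif11) to 0.41 (Kif20a) at 75 mg/kg. Kif20a, a kinesin of the midzone and of cytokinesis, had the smallest adjusted p of all members with all arrays. Its log2 ratios were -2.67, -2.09, -2.45, -2.78 and -3.08 in the controls and -2.49, -2.44, -2.69 and -2.83 at 25 mg/kg. They were -2.10, -2.29, -2.31 and -2.14 at 50 mg/kg and -2.04, -2.22, -1.87 and -2.70 at 75 mg/kg. All 50 mg/kg arrays and 3 of the 4 at 75 mg/kg were above controls 1, 3, 4 and 5, and replicate 20 was not. The difference was 0.00 ± 0.18 at 25 mg/kg, 0.40 ± 0.18 at 50 mg/kg and 0.41 ± 0.18 at 75 mg/kg (adjusted p = 0.453). Without control 2 it was 0.54 ± 0.17 at 75 mg/kg (adjusted p = 0.173). Leaving out each array in turn gave 0.29 to 0.57 at 75 mg/kg, with adjusted p values of 0.173 to 0.668.

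Birc5 (survivin), a subunit of the chromosomal passenger complex, was at -2.46, -1.16, -2.66, -3.50 and -3.18 in the controls. It was at -2.65, -2.19, -3.13 and -2.73 at 25 mg/kg and at -2.04, -2.76, -2.72 and -2.01 at 50 mg/kg. The 75 mg/kg values were -2.10, -2.22, -2.28 and -2.22. The controls spread over a range in which all 75 mg/kg arrays lay close together, with SDs of 0.90 (n = 5) and 0.08 (n = 4). The difference was 0.39 ± 0.34 (adjusted p = 0.768), and 0.75 ± 0.24 without control 2 (adjusted p = 0.195). The probe used matched the transcript NM_001012273. A second probe of that same transcript, well above background on 13 arrays, gave 0.11 ± 0.26, and a probe of another transcript gave -0.03 ± 0.22. In the setting in which Birc5 passed, those probes gave 0.25 ± 0.13 (adjusted p = 0.389) and 0.11 ± 0.18 (adjusted p = 0.841).

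The remaining spindle genes did not pass at 75 mg/kg with or without control 2. With all arrays each of their differences was smaller than its standard error. Cenpe, a kinetochore motor, differed by 0.22 ± 0.31, Cdca3, a trigger of mitotic entry, by 0.12 ± 0.22, and Prc1, which bundles the midzone, by 0.06 ± 0.22. Nusap1, a microtubule-binding spindle protein, differed by 0.03 ± 0.26, Tpx2, the activator of Aurora A, by -0.09 ± 0.20, and Cenpa, the histone of the centromere, by -0.12 ± 0.23. Kif11, the motor that separates the spindle poles, differed by -0.14 ± 0.15. Without control 2 Cenpe differed by 0.51 ± 0.24 (adjusted p = 0.49). Cdca3 then stood at 0.29 ± 0.19, Nusap1 at 0.28 ± 0.19, Prc1 at 0.23 ± 0.19 and Kif11 at -0.09 ± 0.16. The differences of Tpx2 and Cenpa took the other sign, at 0.08 ± 0.16 and 0.08 ± 0.20.

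Mki67, the antigen of the Ki-67 stain, was the member with the largest spread within groups (pooled SD 0.63 over all arrays). Its log2 ratios were -2.75, -0.82, -2.74, -3.49 and -3.22 in the controls and -2.89, -2.44, -3.36 and -2.79 at 25 mg/kg. They were -2.54, -2.95, -2.80 and -2.45 at 50 mg/kg and -2.14, -2.62, -2.62 and -2.43 at 75 mg/kg. All 75 mg/kg arrays were above every control but control 2, which was above every array of the study. The group means were -2.61 ± 1.05 (SD, n = 5) in controls and -2.45 ± 0.23 (SD, n = 4) at 75 mg/kg. The difference was 0.15 ± 0.38 (adjusted p = 0.933), and 0.60 ± 0.20 without control 2 (adjusted p = 0.234). When each array was left out in turn, it ran from -0.07 to 0.60, and its second probe gave 0.18 ± 0.38.

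Top2a, the topoisomerase that untangles sister chromatids, was at -2.48, -1.80, -2.29, -2.78 and -3.17 in the controls. It was at -2.45, -2.55, -2.75 and -2.90 at 25 mg/kg and at -2.38, -2.44, -2.08 and -2.45 at 50 mg/kg. At 75 mg/kg it was at -2.17, -2.23, -2.49 and -2.73. The groups overlapped with and without control 2. The difference at 75 mg/kg was 0.10 ± 0.21 (adjusted p = 0.913), and 0.28 ± 0.18 without control 2 (adjusted p = 0.664).

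**Figure D3:**
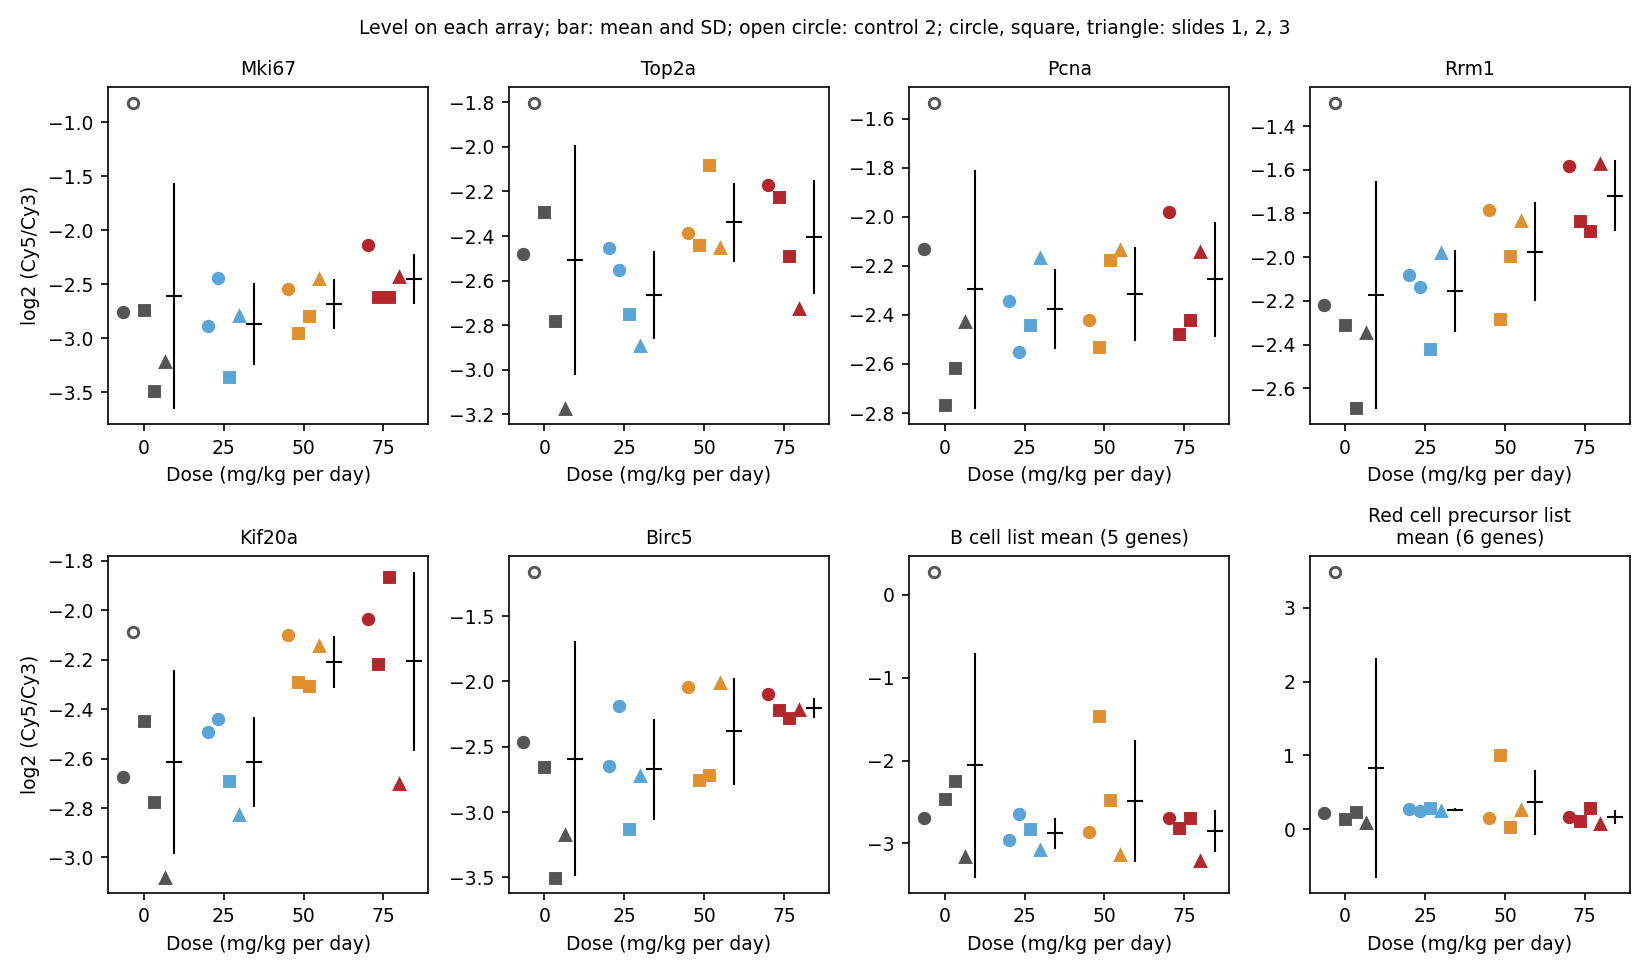
Log2 ratio (Cy5 over Cy3) on each array by dose for Mki67, Top2a, Pcna, Rrm1, Kif20a and Birc5, and the mean log2 ratio of the B cell list and of the red cell precursor list. Circles, squares and triangles are slides 1, 2 and 3, the open circle is control 2, and the bar beside each group is its mean and SD. Control 2 is the highest control in all 8 panels, at 0.28 in the B cell panel and 3.49 in the red cell panel.

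Within groups, the members varied together from array to array. After the group means were subtracted, the median correlation over the 666 pairs of members was 0.557 over the 17 arrays and 0.338 without control 2. These arrays share reference RNA and slides, so the values are a description. Within the 11 replication and nucleotide members the median was 0.75, and 0.468 without control 2. Within the 24 mitosis members it was 0.76, and 0.677 without control 2. Between the sets it was 0.358, and -0.04 without control 2. Slide was not removed from these correlations, and the link between the sets within slides was not tested. The mean level of the mitosis members was -2.00, -2.23 and -2.41 on slides 1, 2 and 3, and that of the replication members -1.76, -2.03 and -1.86. Without control 2 slide 1 stood at -2.11 and -1.87. The mitosis levels of single arrays then ran from -2.35 to -1.96, from -2.53 to -2.08 and from -2.76 to -2.02, so the slides overlapped. The pooled SD within groups had a median of 0.34 over the members and 0.20 over all genes, and of 0.25 and 0.19 without control 2.

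**Figure D4:**
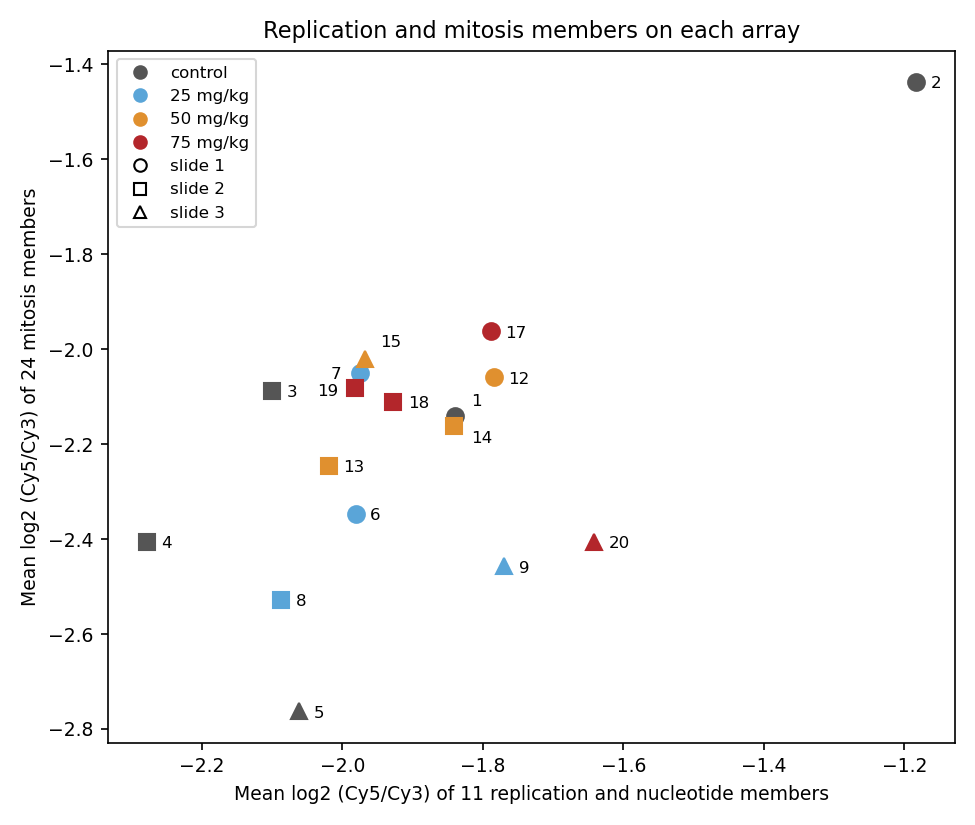
Mean log2 ratio (Cy5 over Cy3) of the 11 measured replication and nucleotide members (horizontal axis) and of the 24 measured mitosis members (vertical axis) on each array, labelled by replicate number, coloured by dose and shaped by slide. Control 2 lies alone at the upper right (-1.18 and -1.44), control 5 is lowest in the mitosis members (-2.76), and the dose groups overlap.

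Other genes of the same processes were counted in the same way. Of 35 further replication genes, 32 were measured, and of 74 further mitosis genes, 62. No gene of either list passed in either direction at any dose, and their medians at 75 mg/kg were -0.03 and -0.03. Without control 2 those medians were 0.07 and 0.06, against 0.19 for the members, with 0 genes of either list passing at that dose. With all arrays, Chaf1a had the smallest adjusted p of the replication list at 75 mg/kg (0.44 ± 0.13, adjusted p = 0.157). It encodes the large subunit of a histone chaperone at the fork. Among 20 measured G1 cyclins, kinases and pocket proteins, 0 passed. Ccnd1, the D-type cyclin of G1, differed by 0.36 ± 0.11 at 25 mg/kg (adjusted p = 0.999) and by 0.25 ± 0.11 at 75 mg/kg (adjusted p = 0.448), and Myc, a growth transcription factor, by 0.30 ± 0.11 at 75 mg/kg (adjusted p = 0.288). E2f7, a repressor of E2F targets, differed by 0.47 ± 0.15 (adjusted p = 0.213, and 0.0349 with slide as a block). Among the 16 inhibitors of cyclin-dependent kinases and of the cycle, 0 passed. Cdkn1a, the p53 target p21, differed by 0.39 ± 0.19 at 75 mg/kg (adjusted p = 0.522), and by 0.26 without control 2.

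Markers of the tissue's cell types were set beside the members. None of the 10 basal keratinocyte markers passed at any dose, with a median of 0.01 at 75 mg/kg. The 10 suprabasal markers had a median of -0.05 at that dose, with 4 higher and 6 lower than control. Of these, 1 rose, Dsg1a, a desmosomal cadherin, at 1.69 ± 0.33 (adjusted p = 0.0154), where 1.1% of all genes passed. The 4 keratins of hyperplastic and wounded epithelium had a median of 2.07 at 75 mg/kg, and 1 of them rose, Krt16, at 3.62 ± 0.57 (adjusted p = 0.00429). The mean of those keratins was 1.03 to 2.91 on the controls, 2.72 to 3.39 at 25 mg/kg, 2.80 to 5.55 at 50 mg/kg and 3.02 to 5.08 at 75 mg/kg, and control 2, at 1.63, was inside the control range. Smooth muscle markers (10 measured) had a median of -0.44 at 75 mg/kg, with 0 passing. Adipocyte markers (8 measured) had a median of -0.68 at that dose, with 7 lower and 1 higher than control and 0 passing. Macrophage markers (5 measured) had a median of 0.02 there, with 0 passing. Without control 2, 1 macrophage marker passed at 50 and 1 at 75 mg/kg, where 0.135% and 1.35% of all genes did. Glandular stomach markers (8 measured) averaged 5.70 on replicate 7 at 25 mg/kg and between 0.18 and 3.1 on the other arrays. The part of these differences in makeup in the member values was not tested.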

How the data were processed

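The authors deposited 1 scanner table per array with spot intensity and local background intensity in both channels, produced with the Feature Extraction software (10.7.3.1), per the file headers. Per the labels, Cy5 held forestomach RNA and Cy3 the reference on all 17 arrays, with no dye swap, so a dye effect is shared by all groups. The series table deposited by the authors held log2 values. Its scale and centring are not given in the sources used here, its column medians were -0.03 to -0.02, and it was used as an alternative only. All of its columns matched a sample (0 unmatched).

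Median signals were corrected with normexp (offset 50) and normalized by loess within each array, and control and flagged spots were left out. Probes had to exceed background clearly in Cy5 (the scanner's own call) on 4 or more arrays to be kept (27601 probes), and each gene was represented by its brightest probe (21405 genes). Well above background were 39.9 to 50.7% of probes per array, and the number of arrays limits the precision. The plan assumed mean signals, which were not in the tables used here. Of 55681 probes, 26413 had 1 symbol through their RefSeq transcript, 0 several and 29268 none.

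Tests used limma 3.58.1 in R 4.3.3 (group means over all 17 arrays, two-sided, with p adjusted by Benjamini-Hochberg over the 21405 genes and called below 0.05). A value after ± is the standard error of the fit unless given as SD. A gene that passed is said to have risen or fallen. The fit was tested on simulated data. The design text calls the samples biological replicates. Every member is named with its difference at 75 mg/kg or by its absence from the test. Values on each array are given for Mki67, Top2a, Pcna, Cdk1 and Ccnb1, for the 4 highest and 4 lowest moderated statistics at 75 mg/kg, and for Ube2c. Of other lists, Cdkn1a, Ccnd1, Myc and genes that passed are named; Chaf1a and E2f7 were added after their values were seen. Members, roles, motifs and lists were chosen with earlier results of these data known. Alternatives were other background corrections, normalizations, filters and probe choices, slide as a block, and each array left out in turn.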

Additional observations from a re-analysis of the deposited data

Results flagged for a closer look

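In some groups 1 array lay far from the rest, by the gap to its nearest neighbour as a share of the group's whole range. Chance alone gives about 1 such array in 20 groups. The role means are made of the members, so the groups are not independent and the cases below cannot be counted against that share. Mki67 was high on control 2, at -0.82 with the next control at -2.74 (gap share 0.721). The other 6 cases were in groups of 4 arrays. Ccnb1 was high on replicate 7 at 25 mg/kg, at -1.87 against -2.23 (0.857). Cdc45 was low on replicate 15 at 50 mg/kg, at -1.38 against -0.87 (0.877), where none of its probe's signals was well above background. The mean of the replication origin and fork members was high on replicate 9 at 25 mg/kg, at -1.86 against -2.11 (0.924). The mean of the nucleotide supply members was low on replicate 8 at 25 mg/kg, at -1.96 against -1.61 (0.839). The mean of E2f1 and Ccne1 was low on replicate 15 at 50 mg/kg, at -1.50 against -1.37 (0.859). The mean of Top2a and Mki67 was low on replicate 13 at 50 mg/kg, at -2.69 against -2.46 (0.902).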

How the results depend on the processing

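Over 10 other settings that left out no single array, 0 members passed at 25, 50 or 75 mg/kg. In 1 of them each dose was fitted with the controls alone, so it gave no dose trend. Under median centring in place of loess, the median member difference at 75 mg/kg was 0.34, when that of all genes moved to 0.19, and 1 member passed in the dose trend (Kif20a, adjusted p = 0.0385, where 0.804% of all genes did). Over the same settings the median ran from -0.17 to 0.08 at 25 mg/kg, from 0.00 to 0.19 at 50 mg/kg and from -0.02 to 0.34 at 75 mg/kg. Leaving out each of the 17 arrays in turn gave 0 to 0 members at 25 and at 50 mg/kg, 0 to 1 at 75 mg/kg and 0 to 1 in the dose trend, the 1 being Rrm1 without control 2. The medians then ran from -0.27 to 0.03, from -0.11 to 0.18 and from -0.09 to 0.19, the lowest without control 5 and the highest without control 2. With control 2 left out and slide as a block, a setting added after the data were seen, 1 member passed at 50 mg/kg, 4 at 75 mg/kg and 5 in the dose trend. Of 333 values of the 12 named members under the alternatives, 15 had the other sign, and none of these passed. No paired analysis was possible because the groups share no replicate numbers. The offset of 50 added to every signal draws the ratios of dim probes together by construction, so differences of dim members can be understated.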
